A study of Mus musculus with 4 samples.

Results

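GABAergic cells made up a small fraction of the tdTomato-sorted cells of the mouse cerebellum at E14.5. They were chosen by measured values: a cell needed at least 2 UMIs (unique molecular identifiers, each standing for a captured transcript) of Gad1, Gad2 and Slc32a1 together. It could have at most 1 UMI of Pax6 and none of Olig2, Tbr1 or Lmx1a. Of 12546 cells that passed the filters on genes, UMIs and mitochondrial RNA, 88 met this rule. The 7 genes of the rule are therefore description, and so is any comparison of the GABAergic cells with the remaining cells.

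The cerebellum has separate sources for its excitatory and inhibitory neurons. Atoh1-expressing progenitors of the rhombic lip give granule cells and the excitatory neurons of the cerebellar nuclei, whereas Ptf1a-expressing progenitors of the ventricular zone give Purkinje cells and the Pax2-expressing inhibitory interneurons. GABA is made by the glutamate decarboxylases encoded by Gad1 and Gad2, and is loaded into synaptic vesicles by the transporter encoded by Slc32a1. The homeodomain proteins En1 and En2 pattern the midbrain and cerebellum and are expressed in both kinds of progenitor and in subsets of neurons.

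Single-cell RNA sequencing was done on 2 control and 2 En1/2 conditional knockout (CKO) libraries. All animals carried Atoh1-Cre/+ and the R26LSL-tdT/+ reporter, which turns on tdTomato where Cre has acted; the CKO animals in addition carried En1lox/lox and En2lox/lox. The deletion is therefore aimed at the Atoh1 lineage, in which Cre is driven, and not at the whole cerebellum. Cerebella of several animals were pooled for each library, so a p-value measures the spread between pools. Where 4 values are given in a row, they stand for control 1, control 2, CKO 1 and CKO 2.

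The libraries held 14998150 to 33709450 UMIs, and 2911, 3931, 2007 and 3697 cells were kept. The groups differed in depth: median UMIs per kept cell were 2734, 2122, 5352 and 5544. The medians of the GABAergic cells did not share this difference, at 3489.5, 2664.5, 3185 and 2997 UMIs. Their deepest cells did, at 7197, 6314, 19201 and 13384 UMIs. Library pairs shared 1 to 6 kept barcodes, none of them GABAergic in both libraries. The targeted genes were read first, over the kept cells outside the GABAergic group. En2 stood at 136, 167, 28.5 and 19.4 CPM (counts scaled to the summed UMIs of the cells), with both CKO libraries below both controls. En1 stood at 237, 382, 149 and 252 CPM there, and its groups overlapped. Since the assay reads transcripts at their 3′ ends, and no position within a gene was used, a level need not report the deleted part.

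The genes of the rule were unevenly detected. Gad2 (chromosome 2, 22622205 to 22693874, GRCm38) had a UMI in 71 of the 88 cells, Gad1 (chromosome 2, 70553072 to 70602014) in 40 and Slc32a1 (chromosome 2, 158610767 to 158615748) in 37. All 3 genes were detected in 9 cells and only 1 of them in 37 cells. Summed over a library's GABAergic cells, the 3 genes reached 953, 1014, 829 and 994 CPM, against 1.82 to 6.56 CPM in the other kept cells. The minimum of 2 UMIs left 35 members exactly on the threshold, and 97 further cells that passed the same exclusions had 1 such UMI. Of the 102 cells with at least 2 of these UMIs, 9 had too much Pax6, 2 had Olig2, 3 had Tbr1 and 3 had Lmx1a, some of them for more than a single gene. Background RNA was read from cells that should lack these genes. Among 6479 cells with at least 2 Pax6 UMIs, 67 (1.03%) had 1 or more of these UMIs and 9 (0.139%) had 2 or more, at a median depth of 5578 UMIs against 2929 in the GABAergic cells. None of 19 red blood cell barcodes had one.

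The marker genes that the rule did not use followed the number of these UMIs. Lhx1 was detected in 6.95% of 4909 cells that passed the exclusions with none of these UMIs, in 33.0% with 1, in 54.3% with 2 and in 60.4% with 3 or more. Foxp2 was detected in 7.39%, 39.2%, 54.3% and 58.5% of the same cells. Lhx5 stood at 0.835%, 12.4%, 31.4% and 50.9% in these bands, and Pax2 at 0.346%, 1.03%, 11.4% and 13.2%. Cells just outside the threshold thus carried markers at levels between those of cells with none and members. Median depth was 1945, 2250, 2345 and 3374 UMIs over the bands, so depth moved with the number of GABA gene UMIs. After each cell was thinned to 2000 UMIs before the rule was applied, 41 cells met it, and Lhx1 was found in 63.4% of them against 4.83% of 8258 other cells, Foxp2 in 70.7% against 5.01% and Lhx5 in 43.9% against 0.593%.

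**Figure D1:**
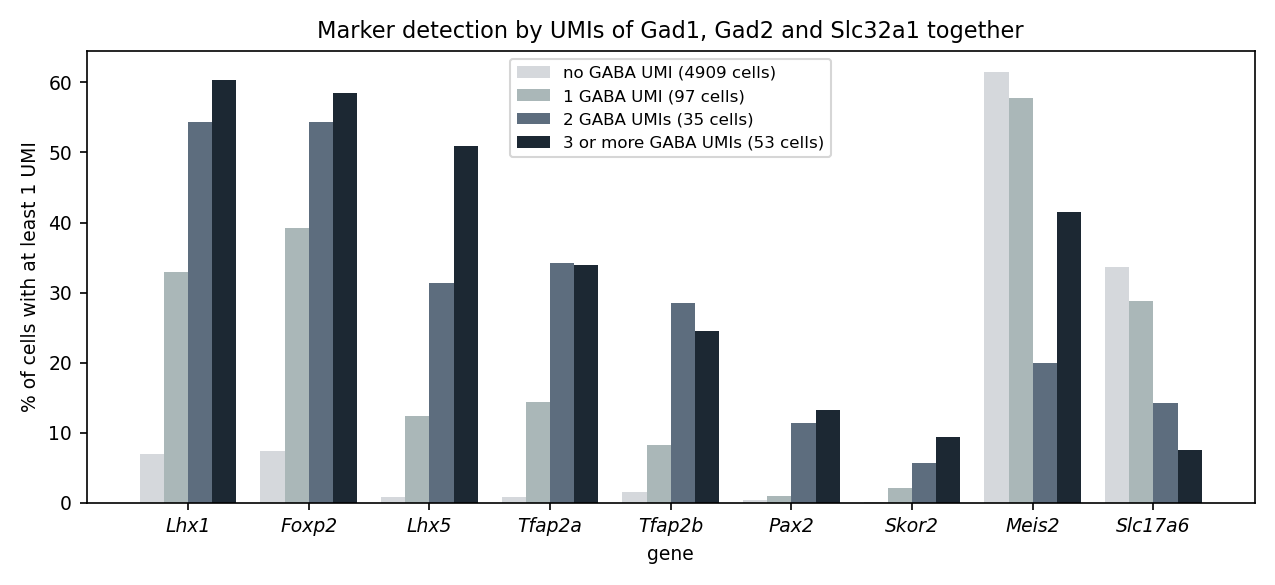
Bars give the percent of cells with at least 1 UMI of each gene (vertical axis) for cells that passed the exclusions and had 0, 1, 2 or at least 3 UMIs of Gad1, Gad2 and Slc32a1 together; the legend gives the cells in each band. Lhx1 goes from 6.95% in the lowest band to 60.4% in the highest, while Slc17a6 and Meis2, genes of excitatory neurons, are most frequent in the lowest band.

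The label of GABAergic neurons was checked against markers of other cells. Meningeal and microglial markers, 5 and 6 genes, had no UMI in any member, and 4 of 5 vascular and 2 of 3 oligodendrocyte lineage markers had none. For the meningeal, vascular and oligodendrocyte lists this is a weak check, since they were also low in the other cells. They summed there to 0.749 to 4.74, 4.37 to 12.6 and 3.98 to 12.7 CPM, and the microglial list to 0.562 to 129 CPM. In control 1 members the vascular and oligodendrocyte lists each stood at 11.3 CPM, against 6.77 and 12.7 CPM. Markers of midbrain and brainstem GABAergic neurons were sparse: 5 of the 7 genes of that list, Gata2 and Sox14 among them, had no UMI. The list summed to 34.0, 0, 0 and 0 CPM, against 0.677, 0.856, 0.374 and 0.377 CPM in the other cells. The control 1 value came from 1 cell with 2 UMIs of Gata3 and 1 of Tal1. That cell also had Gad1, Slc32a1, Lhx1 and Foxp2. Slc17a6, the vesicular glutamate transporter of excitatory neurons, had a UMI in 9 members. At least 1 UMI of Atoh1, Neurod1 or Barhl1, genes of the granule lineage, was present in 41 members, and the 10 granule lineage markers, none at 0, summed to 2042, 1826, 2424 and 1692 CPM, against 2351 to 3188 CPM in the other cells. The 8 markers of excitatory nuclei neurons, none at 0, summed to 1078, 751, 1347 and 783 CPM, against 773 to 2587 CPM. Haemoglobin and other red blood cell genes summed to 45.4, 690, 31.1 and 0 CPM, below the 1261, 4448, 2002 and 3.27 CPM of the other cells, which include the red blood cell barcodes. In the Pax6 cells (at least 2 Pax6 UMIs and no GABA gene UMI) they summed to 24.2, 1186, 13.5 and 2.62 CPM, so members were higher than those in control 1 and CKO 1. A doublet score placed 5 of the 88 members (5.68%) among the likely doublets, 2, 1, 0 and 2 per library. Over all kept cells it flagged 68 of 2911, 124 of 3931, 32 of 2007 and 109 of 3697. The share of members flagged was above that of all kept cells in control 1 and CKO 2, and below it in control 2 and CKO 1. The part of these signals in the results was not tested, except where values without the cells are given.

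The label ran against the data in 4 deep cells, and also in some shallower cells given below. Members with at least 4 UMIs each of Atoh1 and Barhl1 numbered 1, 0, 2 and 1. From control 1 to CKO 2 these cells had 2, 5, 0 and 1 UMIs of Lhx1, none of Foxp2, Lhx5, Pax2 or Tfap2a, and 13, 5, 44 and 25 UMIs of Meis2, a gene of excitatory nuclei neurons. Their GABA gene UMIs, 3, 5, 9 and 4, were all Gad2. They held 8.16% of the GABAergic UMIs of control 1, 36.1% of CKO 1 and 28.3% of CKO 2. Together with a Pax2-positive cell of 15701 UMIs in CKO 1, the CKO cells among them were the only members above 10000 UMIs, 3 in CKO 1 and 1 in CKO 2, and these held 52.4% and 28.3% of the GABAergic UMIs there. The genotype comparisons of named genes are therefore given with these 4 cells above 10000 UMIs and, where the value moves, without them. Shallower members could go against the label without reaching 4 UMIs each of Atoh1 and Barhl1. Among these, control 1 cells of 4097 and 3532 UMIs had 6 and 25 UMIs of Meis2. Both had only Gad2 among the GABA genes and none of Lhx1, Lhx5, Foxp2, Skor2 or Pax2. Such shallower cells were not counted.

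Transcription factors of the Purkinje cell lineage made up the most frequent signature. Lhx1 (chromosome 11, 84518284 to 84525535), a LIM homeodomain factor needed for Purkinje cell specification together with its paralogue Lhx5, was detected in 51 of 88 cells, and its summed level was 374, 1136, 394 and 296 CPM against 10.7 to 47.4 CPM in the other cells. Lhx5 (chromosome 5, 120431699 to 120441223) was detected in 38 cells at 170, 213, 259 and 148 CPM, against 1.23 to 5.23 CPM. In all 4 libraries both genes lay above the other cells. Foxp2 (chromosome 6, 14901349 to 15441977), a forkhead factor of Purkinje cells, was detected in 50 cells at 692, 842, 601 and 592 CPM, against 22.1 to 44.4 CPM. A UMI of Lhx1 or Lhx5 was present in 65 cells, and 44 cells had Foxp2 with one of them.

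Other genes of the Purkinje lineage list were unevenly detected. Skor2, a corepressor specific to Purkinje cells in the cerebellum, had UMIs in 7 cells, which were 0, 4, 3 and 0 per library. A count of 0 among the 24 cells of control 1 allows a share of cells with a UMI of up to 12.5% by a limit of 3 counts, and among the 13 cells of CKO 2 up to 23.1%; at this depth it sets no limit on cells that express the gene. Its paralogue Skor1 was found in 9, 6, 7 and 3 cells at 101 to 148 CPM, against 0.608 to 2.85 CPM in the other cells. Rora, a nuclear receptor that drives Purkinje cell maturation, was found in 25 cells at 166 to 284 CPM, against 6.47 to 10.4 CPM. Calb1, a calcium-binding protein of mature Purkinje cells, had no UMI in the 88 cells, which allows a share of cells with a UMI of up to 3.41%, and not a limit on cells that express it. Pcp4, a calmodulin regulator of later Purkinje cells, was lower than in the other cells in every library, at 125, 142, 41.4 and 21.2 CPM against 223 to 498 CPM. Ebf1, a factor of early postmitotic neurons, was found in 78 of the 88 cells at 3936, 6350, 2031 and 3744 CPM against 169 to 1562 CPM.

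**Figure D2:**
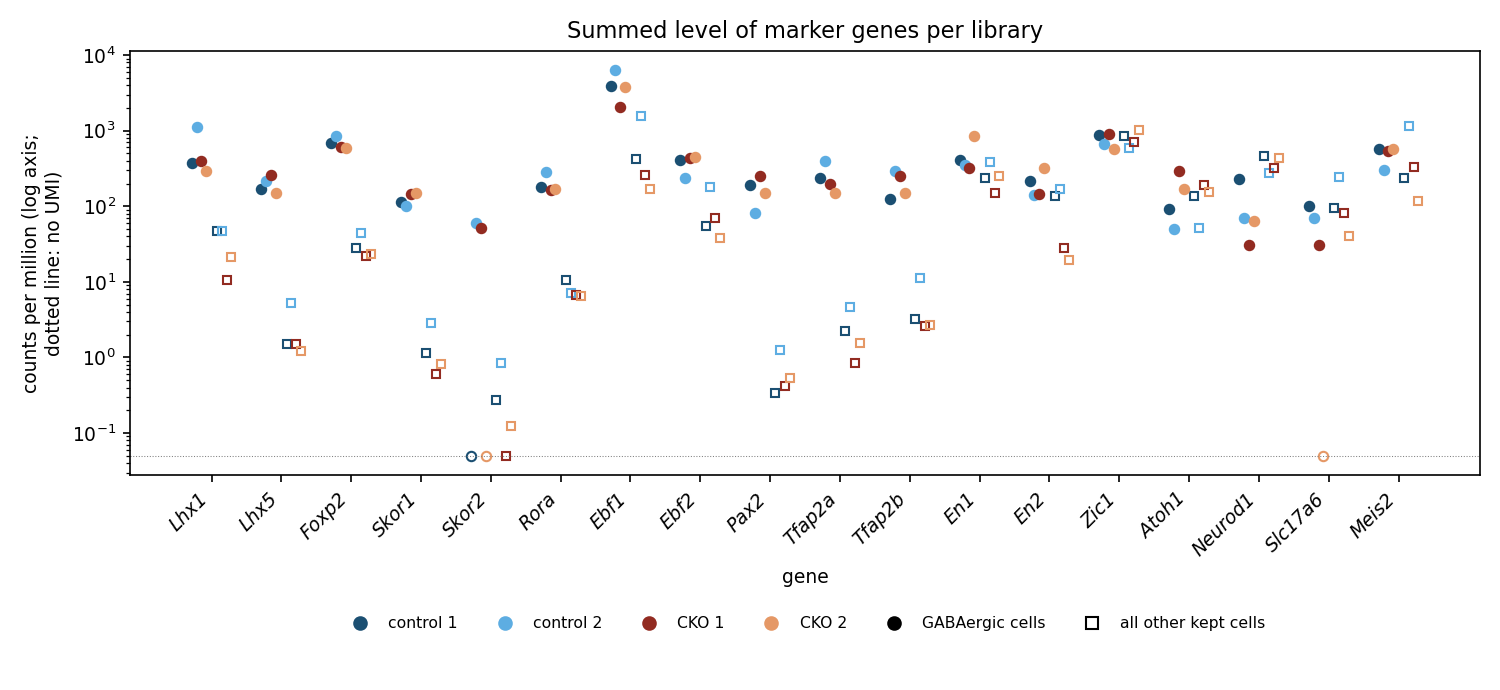
Summed level of each gene (horizontal axis) in CPM on a log axis (vertical); filled circles are the GABAergic cells and open squares all other kept cells of the same library, and symbols on the dotted line had no UMI. Lhx1, Lhx5, Foxp2, Skor1, Rora, Pax2, Tfap2a and Tfap2b lie higher in the GABAergic cells of all 4 libraries, while for Zic1 the circles (571 to 891) and the squares (586 to 1013) overlap. The En2 squares of the CKO libraries, at 28.5 and 19.4, lie below the En2 circles of all 4 libraries.

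Pax2 (chromosome 19, 44756045 to 44837871), the paired-box factor of inhibitory interneuron precursors, was detected in 11 cells, 4, 4, 2 and 1 per library. Its summed level was 193, 81.1, 249 and 148 CPM against 0.339 to 1.24 CPM in the other cells. In CKO 1, 21 of its 24 UMIs came from a single cell of 15701 UMIs. All 11 Pax2 cells also had a UMI of Lhx1, Lhx5 or Foxp2, and no cell had both Pax2 and Skor2. Cells with a Purkinje lineage marker (Lhx1, Lhx5, Foxp2 or Skor2) but no Pax2 numbered 60, and 17 cells had none of the 5 genes. The 60 include those deep cells with Atoh1 and Barhl1 that also had Lhx1. Lhx1 was found in 6.95% of cells with no GABA gene UMI as well. The 60 is thus a count of cells with a marker UMI and not of Purkinje cells. At a median of 2672 UMIs, those 17 were shallower than the 11 Pax2 cells, which had a median of 3236.

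The AP-2 factors Tfap2a and Tfap2b are known to act downstream of Ptf1a in GABAergic neurons. Tfap2a was detected in 30 members at 238, 396, 197 and 148 CPM, against 0.842 to 4.66 CPM in the other cells. Tfap2b was detected in 23 members at 125, 294, 249 and 148 CPM, against 2.57 to 11.1 CPM. Both genes were found together in 16 cells, and 37 cells had at least 1 of them. Their promoters are shown because the paralogues appeared together in cells that also carry homeodomain factors, which bind sequences with a TAAT core. RefSeq windows (GRCm38.p6, 250 bases before to 50 bases after the start, given 5′ to 3′ on the gene's strand) were searched for TAATTG on both strands, which reads CAATTA on the other; this motif was chosen after the windows had been seen, and it shares its first letters with TAATTA. Capitals mark the motif.
Tfap2a, chr13:40734871-40735170, minus strand: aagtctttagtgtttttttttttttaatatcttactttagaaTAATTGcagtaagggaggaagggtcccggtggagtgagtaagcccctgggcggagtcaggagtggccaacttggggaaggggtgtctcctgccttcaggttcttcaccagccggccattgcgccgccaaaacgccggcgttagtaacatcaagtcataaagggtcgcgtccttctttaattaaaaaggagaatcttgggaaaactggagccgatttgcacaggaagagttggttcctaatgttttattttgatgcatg
Tfap2b, chr1:19211804-19212103, plus strand: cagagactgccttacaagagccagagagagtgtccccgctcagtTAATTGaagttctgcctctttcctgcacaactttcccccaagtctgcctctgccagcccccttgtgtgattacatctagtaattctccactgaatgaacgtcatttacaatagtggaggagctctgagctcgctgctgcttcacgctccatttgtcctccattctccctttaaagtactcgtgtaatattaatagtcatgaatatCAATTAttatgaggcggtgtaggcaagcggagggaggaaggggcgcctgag
The motif occurred once in the Tfap2a window and on each strand in the Tfap2b window. It was in 8.0% of 32851 promoter windows of the same length and in 2 of 10 windows found for 7 of the marker genes, and a second Tfap2a start lacked it. A match is a description of the letters and no evidence of binding.

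The Pax2 and Skor2 cells were too few for a fit, with under 10 cells on each side in every library, and are described only. Among the 11 Pax2 cells, Gad1 was detected in 10 and Gad2 in 5, Lhx5 in 8 and Lhx1 in 4, Tfap2b in 8 and Tfap2a in 6. Among the 7 Skor2 cells, Gad2 was detected in 7 and Gad1 in 3, Lhx1 in 7 and Lhx5 in 4, Foxp2 in 7 and Rora in 5. Pax2 cells thus more often held Gad1 and Lhx5 and Skor2 cells Gad2, Lhx1 and Foxp2, in counts too small to test. Zic1, a zinc-finger factor of many cerebellar cells, was found in 9 of the 11 Pax2 cells and in 5 of the 7 Skor2 cells. Neurod1, a bHLH factor of differentiating neurons, was found in 6 of the 11 Pax2 cells.

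**Figure D3:**
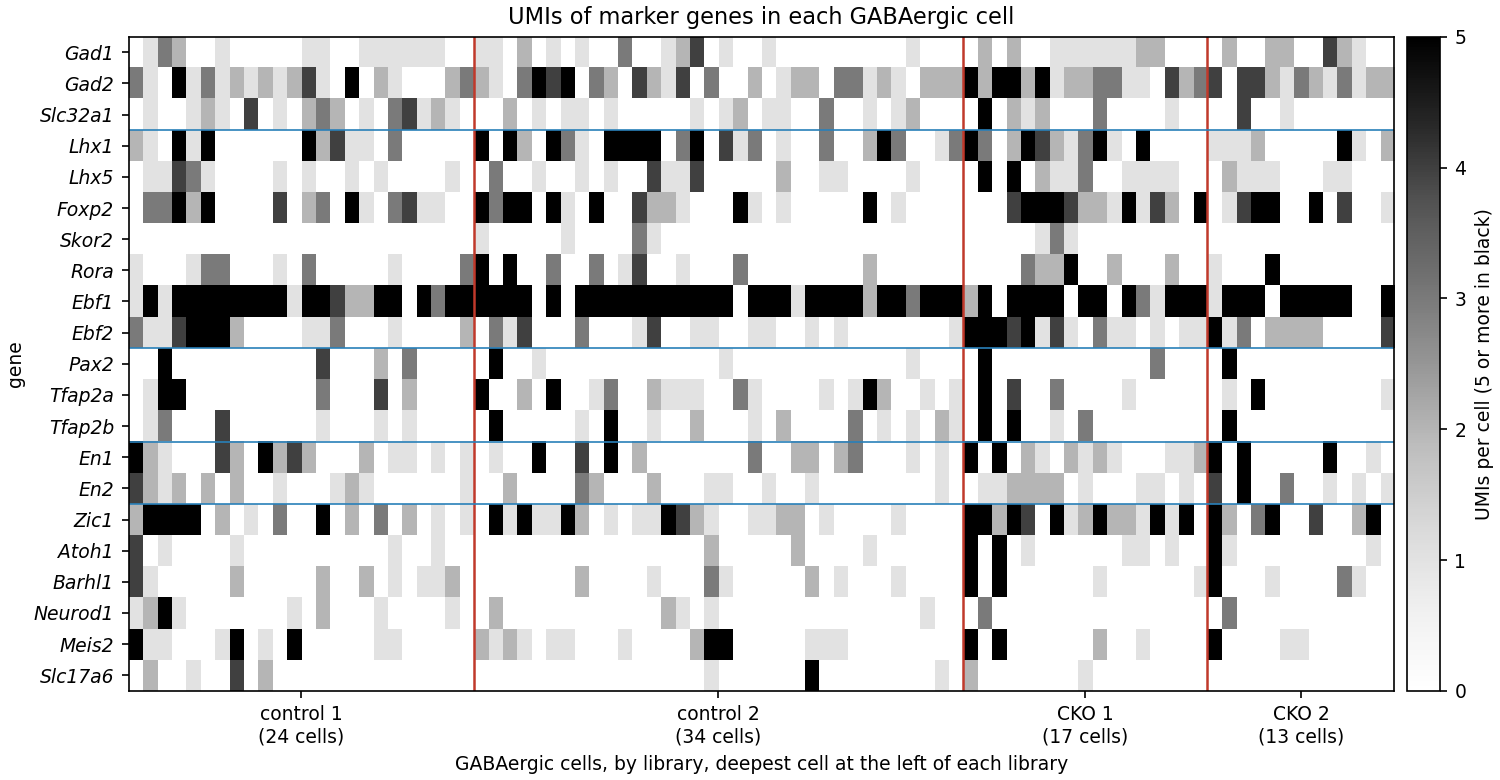
Each column is a GABAergic cell, ordered by depth within its library, and each row a marker gene; shading gives UMIs per cell from 0 to 5 or more. Gad2, Lhx1, Foxp2 and Ebf1 are found in 71, 51, 50 and 78 of the 88 columns, the 11 Pax2 cells have no Skor2, and 3 of the 4 cells above 10000 UMIs, at the left of CKO 1 and CKO 2, carry Atoh1, Barhl1 and Meis2.

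Cycling genes were lower in the GABAergic cells than in the other cells, and ventricular zone genes were lower in 1 of 4 libraries. Ptf1a, which marks the ventricular zone progenitors of these neurons, had no UMI in the 88 cells. Of the 10 genes of the ventricular zone list 7 were detected, and they summed to 170, 91.3, 290 and 233 CPM, against 154, 127, 158 and 97.3 CPM in the other cells, higher in 3 of 4 libraries. Cells with at least 2 UMIs of the 6 cycling genes numbered 13, or 5, 6, 1 and 1 per library. These genes summed to 261, 213, 51.8 and 465 CPM against 659 to 1870 CPM in the other cells, which include the Pax6 cells. A second comparison took cells with Slc17a6, at least 2 Meis2 UMIs, at most 1 Pax6 UMI and no GABA gene UMI. There the cycling genes summed to 193, 141, 148 and 81.1 CPM, so the GABAergic cells were higher than these neurons in 3 of 4 libraries. In CKO 2 most of the cycling UMIs of the members came from 1 cell of 1722 UMIs. It had 4, 4, 2 and 6 UMIs of Mki67, Top2a, Cenpf and Ube2c. Map2, a dendritic microtubule protein, was detected in 84 of the 88 cells and was higher than in the other cells of each library, at 1055, 1156, 953 and 1163 CPM against 514, 952, 422 and 406 CPM. It was not typical of the 8 neuron maturation genes listed. In the fit against the other cells described below, Map2 was the 1 called higher, and 3 (Stmn2, Syt1 and Nefl) were called lower. The median log2 difference of the 8 genes was −0.04.

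Among 19 genes of inhibitory transmission, 15 were measured well enough to be fitted. Slc12a5, the chloride exporter KCC2, had 5, 3, 1 and 0 UMIs. Slc6a5, the glycine transporter of glycinergic neurons, had 1, 0, 3 and 3 UMIs in 6 cells, against at most 0.190 CPM in the other cells of any library. Of the 19 genes 3 had no UMI in the members.

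Set against all other kept cells of the same library in a fit across 11988 genes, the GABAergic cells were higher for 388 genes (3.24%) and lower for 849 (7.08%) at an adjusted p under 0.05 (edgeR's quasi-likelihood test with Benjamini-Hochberg adjustment). Since the cells were chosen within this contrast, these shares are a description and nothing is read from them. Of 17 Purkinje lineage genes in the fit 10 were among the higher genes and 1, Pcp4, among the lower; all 4 interneuron lineage genes in the fit were among the higher. The median log2 difference was 1.61 for the 17 genes and −0.22 over all genes. Beside Pax2, Tfap2a, Skor1, Lhx5 and Tfap2b, the genes with the greatest excess were Slc30a3, a vesicular zinc transporter with a log2 difference of 6.41, Megf11 (5.41), Slc1a6, the glutamate transporter EAAT4 of Purkinje cells (4.99), and the noncoding genes Gm14204 (6.74) and Gm27199 (6.42). The 10 genes on the lower side had no UMI in any member: Kcnj6, a potassium channel subunit, and Ckap2l, Cenpm, Clspn, Sgo2a, Hist1h3c, Kif22, Kif4, Tuba1c and Cdca2, most of which act in DNA replication or mitosis. Against a floor of 3 counts over all members, they were at least 4.31-fold to 7.70-fold lower than in the other cells. All 6 cycling genes were lower, and so were 4 of 10 granule lineage genes and none higher; exclusion of cells with 2 or more Pax6 UMIs is part of the rule.

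The share of GABAergic cells overlapped between the genotypes as the rule stands. It was 0.824%, 0.865%, 0.847% and 0.352% of the kept cells, or 0.845 ± 0.0286% (SD, n = 2) in controls and 0.599 ± 0.350% (SD, n = 2) in CKO libraries. CKO 1 lay between the controls and only CKO 2 lay below them; its exact 95% binomial interval of 0.187 to 0.601% touches that of control 2, which begins at 0.60%. Permuting the genotypes over the 4 libraries gave an exact two-sided p = 0.667, and the smallest p that 2 against 2 allows is 0.333. Intervals cover counting error only. CKO 2 also had the largest number of cells with 2 or more of these UMIs that were set aside for Pax6, 6 of 21 against 1 in each other library. Both CKO libraries lay below both controls at 2000 UMIs per cell (difference −0.231 percentage points), among cells with at least 1000 genes (−0.306) and without the members above 10000 UMIs (−0.334), each with an exact permutation p = 0.333, the smallest possible. All members above 10000 UMIs were in CKO libraries and the number of kept cells was left as it was. Leaving those members out could therefore only lower the CKO shares, and nothing is read from that value. With at least 3 GABA gene UMIs the difference was −0.0463 and with at least 1 it was −0.482 percentage points, and the groups overlapped in both.

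**Figure D4:**
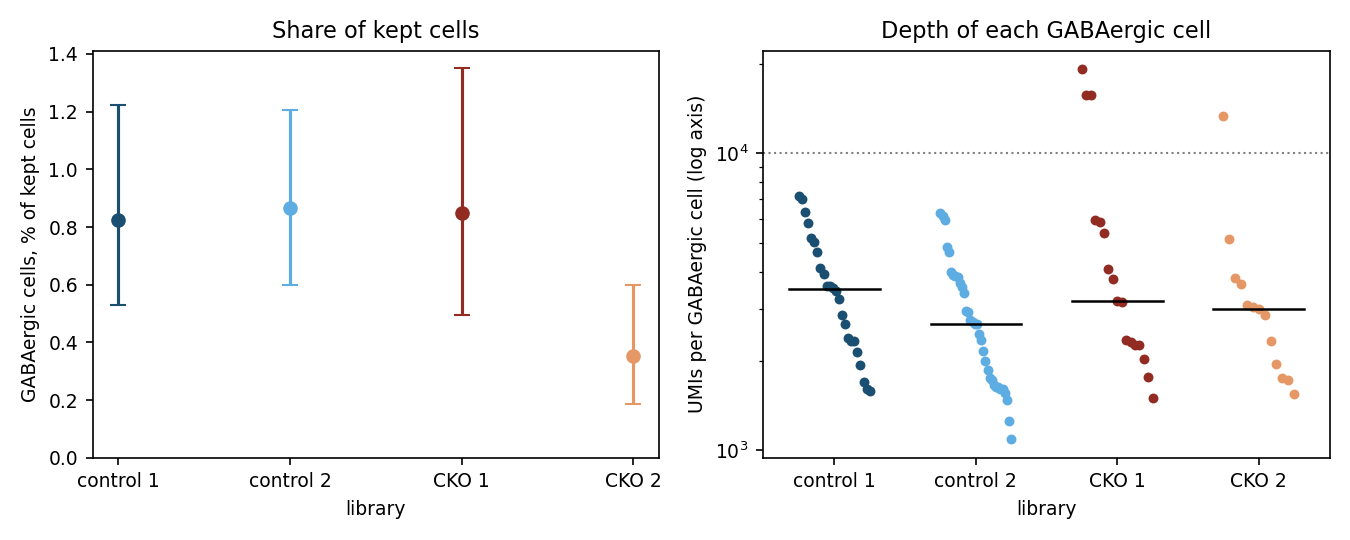
Left, GABAergic cells in percent of kept cells per library, with exact 95% binomial intervals; right, UMIs of each GABAergic cell on a log axis, with the library median as a black line and 10000 UMIs dotted. CKO 2 is lowest at 0.352%, and the 4 cells above 10000 UMIs are all in CKO libraries.

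The shares of Pax2 and Skor2 cells among the GABAergic cells were low in both genotypes. Pax2 cells made up 16.7%, 11.8%, 11.8% and 7.69% of them (14.2 ± 3.47% in controls and 9.73 ± 2.88% in CKO, SD, n = 2 each; exact permutation p = 0.667). CKO 1 equalled control 2. Both CKO libraries lay below both controls with at least 3 GABA gene UMIs (difference −14.9 percentage points), with no Pax6 UMI (−5.44), at 2000 UMIs per cell (−16.1) and without the members above 10000 UMIs (−6.48), each with the smallest exact permutation p, 0.333. The step on members above 10000 UMIs took cells from the CKO libraries only, 1 of them a Pax2 cell of CKO 1. With at least 1 GABA gene UMI the difference was −0.868. Skor2 cells made up 0, 11.8%, 17.6% and 0%, and each genotype had a library without any (exact permutation p = 1.0). Each share rests on 13 to 34 cells per library, and a test of 2 against 2 could not pass a threshold of 0.05.

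Within the GABAergic cells, summed per library, 0 of 1990 genes (0.0%) differed between CKO and control at an adjusted p under 0.05 in edgeR's quasi-likelihood test. At an unadjusted p under 0.05 there were 141, and DESeq2 called 0 with 45 unadjusted. Of 12 Purkinje lineage genes tested, 3 had an unadjusted p under 0.05. The log2 difference, CKO minus control, was −1.14 for Lhx1 (SE 0.50; edgeR, adjusted p 0.697), −0.86 for Ebf1 (SE 0.40; adjusted p 0.704) and −1.95 for Pcp4 (SE 0.79; adjusted p 0.626), and none passed the adjusted threshold. Without the 4 members above 10000 UMIs, Lhx1 stood at 374, 1136, 653 and 384 CPM (−0.55, SE 0.50; edgeR, adjusted p 0.917) and Ebf1 at 3936, 6350, 3874 and 5194 CPM (−0.20, SE 0.35; adjusted p 0.955), and Pcp4 was filtered out. For Lhx1 the groups overlapped, since control 1 at 374 CPM lay below CKO 1 at 394 CPM; for Pcp4 they did not. Foxp2 differed by −0.39 (SE 0.36), Lhx5 by 0.13 (SE 0.43), Tfap2a by −0.87 (SE 0.44), Tfap2b by −0.05 (SE 0.49) and Pax2 by 0.59 (SE 0.50). Without those 4 cells the direction turned for Foxp2, at 692, 842, 1262 and 826 CPM (0.43, SE 0.32), and for Pax2 (−0.11, SE 0.73), while Lhx5 was 0.53 (SE 0.43). The medians were −0.35 for the 12 Purkinje lineage genes, 0.65 for 7 granule lineage genes and −0.01 over all genes tested. Without the 4 cells they were 0.43 for the 9 Purkinje lineage genes left, −0.38 for 2 granule lineage genes and −0.02 over 1354 genes, of which 0 were called and 70 had an unadjusted p under 0.05. The median of the Purkinje lineage list thus changed sign without those cells, over fewer genes.

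Nkd1 and Rpl29 were at the lowest adjusted p of that fit, 0.275 in edgeR, and neither is on a lineage list. Atoh1, which is on the granule lineage list, is given beside them. Nkd1, an inhibitor of Wnt signalling, had 8, 3, 37 and 21 UMIs (log2 difference 2.73, SE 0.51; edgeR, adjusted p 0.275). In CKO 1, 21 of its 37 UMIs came from 1 cell, and in CKO 2, 17 of 21. Atoh1 had 8, 5, 28 and 8 UMIs (1.74, SE 0.51; edgeR, adjusted p 0.626), and 24 of the 28 came from the pair of deep cells described above. Rpl29, a ribosomal protein gene, had 13, 7, 68 and 20 UMIs (2.38, SE 0.48; edgeR, adjusted p 0.275), with 22 of the 68 and 12 of the 20 in 1 cell each. Without the members above 10000 UMIs, Nkd1 had 8, 3, 3 and 4 UMIs and Atoh1 8, 5, 4 and 2, both too few to be fitted, and Rpl29 had 13, 7, 14 and 8 (1.30, SE 0.51; edgeR, adjusted p 0.885). Of 75 ribosomal protein genes tested, 67 had both CKO values above both control values, against 17.4% of all genes tested; their median log2 difference was 0.83 and none was called. Without the members above 10000 UMIs the median of 75 such genes was −0.23, the opposite direction. In the Pax6 cells 65 of 88 such genes did so (21.9% of all genes tested), with a median of 0.65. The relation to depth was not tested.

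The Engrailed genes were detected in GABAergic cells of both genotypes. En2 (chromosome 5, 28165694 to 28172166) had 19, 14, 14 and 15 UMIs in 11, 9, 10 and 6 cells, a level of 216, 142, 145 and 317 CPM. The groups overlapped, with 179 ± 52.0 CPM in controls and 231 ± 122 CPM in CKO libraries (SD, n = 2 each). The fitted log2 difference was 0.24 (SE 0.49; edgeR, adjusted p 0.967). Without the members above 10000 UMIs, En2 stood at 216, 142, 261 and 325 CPM, with both CKO libraries above both controls (0.67, SE 0.44; adjusted p 0.885). No CKO 1 cell had more than 2 of its UMIs and no CKO 2 cell more than 5. En1 (chromosome 1, 120602418 to 120607992) had 36, 35, 31 and 40 UMIs, 408, 355, 321 and 846 CPM, with 22 of the 40 UMIs of CKO 2 in 1 cell. Its fitted log2 difference was 0.53 (SE 0.47; edgeR, adjusted p 0.891), and without those cells it was 0.03 (SE 0.41; adjusted p 0.995) at 408, 355, 283 and 531 CPM. Engrailed transcripts of either gene were found in 59 of the 88 cells.

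Excitatory cells of the same libraries gave another picture for En2. The Pax6 cells, 6412 in all, had En2 at 109, 127, 22.0 and 16.4 CPM. The log2 difference was −2.49 (SE 0.24; edgeR, adjusted p 0.0377), and En2 was the 1 gene called lower there (0.00713% of 14017). In 1443 cells in the range of excitatory nuclei neurons (Slc17a6 with at least 2 Meis2 UMIs, at most 1 Pax6 UMI and no GABA gene UMI) it stood at 274, 202, 46.0 and 44.4 CPM. The log2 difference there was −2.34 (SE 0.28; edgeR, adjusted p 0.00204), with 7 of 9653 genes called lower (0.0725%). In the GABAergic cells En2 was 1.98, 1.12, 6.58 and 19.3 times its level in the Pax6 cells. For En1 that ratio was 2.36, 1.46, 3.04 and 4.10. Both CKO ratios lay above both control ratios for each gene, and the exact permutation test of the 4 log2 ratios gave p = 0.333, the smallest possible, for each.

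Whether the CKO effect differed between GABAergic and Pax6 cells was tested across 11468 genes with the library as a block. Of these, 3 genes (0.0262%) were called higher, En2 with a log2 difference of 2.61 (SE 0.52, adjusted p 0.00306 in edgeR's quasi-likelihood test), and Crabp1 and Onecut2. None was called lower, and 302 had an unadjusted p under 0.05. For En1 the difference was 0.68 (SE 0.44, adjusted p 1.0). Crabp1, a retinoic acid-binding protein, had 1, 0, 170 and 0 UMIs, all 170 in the deepest cell of CKO 1, and Onecut2, a neuronal homeodomain factor, had 3, 5, 44 and 2 UMIs, 40 of the 44 in that same cell. The En2 difference was positive in all 17 alternatives run, from 1.97 to 3.76, but it was called in 11 of them and the adjusted p ran from 0.00118 to 1.0. It was not called against the excitatory nuclei range (2.47, adjusted p 0.0665) or at 2000 UMIs per cell (3.02, adjusted p 1.0). Nor was it called without CKO 2 (1.97, adjusted p 1.0), without control 2 (2.30, adjusted p 0.588), after removal of possible doublets (2.14, adjusted p 0.673), which took 8 of the 15 En2 UMIs of CKO 2, or in DESeq2, which called no gene (2.71, adjusted p 1.0). Without the members above 10000 UMIs it was 2.91 (adjusted p 0.00266), and without the members that had a UMI of Atoh1, Neurod1 or Barhl1 it was 3.76 (adjusted p 0.00253).

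Shares of cells were also compared at a common depth. Each cell was thinned to 1000 UMIs in a single random draw, and another draw could give other counts. En2 was then detected in 1, 5, 4 and 3 GABAergic cells, or 4.17%, 14.7%, 23.5% and 23.1%. In the Pax6 cells the shares were 10.9%, 11.6%, 3.33% and 2.08%. The exact 95% binomial intervals of the CKO shares, 6.81 to 49.9% and 5.04 to 53.8%, began above the upper bounds of the Pax6 cells of the same libraries, 4.52% and 2.69%; they cover counting error over cells, and not the spread between libraries. Unthinned, the shares were 45.8%, 26.5%, 58.8% and 46.2% of GABAergic cells and 38.3%, 29.8%, 23.2% and 14.3% of Pax6 cells. Depth differed between the classes, since cells with at least 2 Pax6 UMIs had medians of 3597, 2653, 14865 and 10695.5 UMIs.

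**Figure D5:**
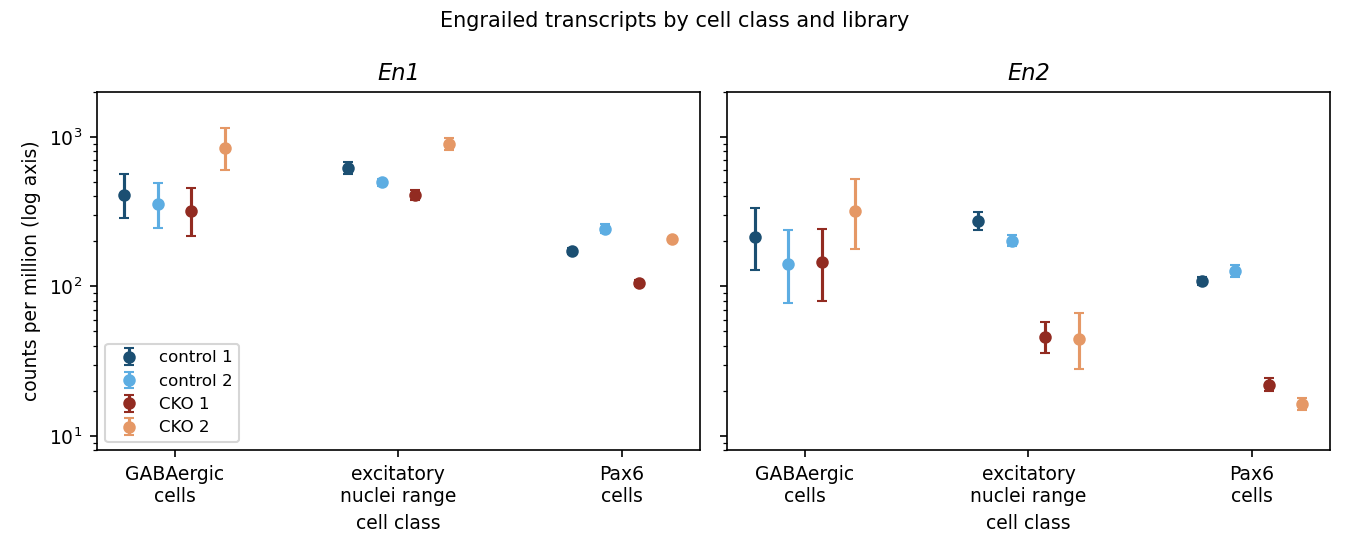
Level of En1 (left) and En2 (right) in CPM on a log axis, by cell class and library; error bars are exact 95% Poisson intervals of the summed counts and cover counting error only. En2 stands at 22.0 and 16.4 in the CKO Pax6 cells against 109 and 127 in the control Pax6 cells, whereas the GABAergic cells hold 145 and 317 in CKO against 216 and 142 in control.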

How the data were processed

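Cells sorted for tdTomato from pooled E14.5 cerebella were profiled in 4 libraries, grouped by genotype from the labels. Per the file headers and the submitters' processing notes, the authors made the matrices with Cell Ranger 5.0.0 on build mm10; the annotation is not given in the sources used here. The deposited values are raw UMI counts per gene and barcode, with no normalization.

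Barcodes with 500 or more genes, 1000 or more UMIs and no more than 10% mitochondrial UMIs were kept. Members and gene lists (161 genes in 23 lists) were chosen with earlier results of these data known. Counts of members, of all other kept cells and of Pax6 cells were summed per library, so that libraries and not cells are replicates, and fitted over all genes with edgeR 4.0.16 in R 4.3.3, after TMM scaling and a filterByExpr filter. The two-sided quasi-likelihood test was adjusted by Benjamini-Hochberg, with 0.05 as the threshold. SE stands for standard error, taken as a log2 difference divided by the root of its F statistic. Contrasts within a library had the library as a block. DESeq2 1.42.0 was an alternative. The fits were tested on simulated library sums with 200 genes changed by a log2 difference of 2 in either direction. CKO against control in members recovered 79.5% of them, members against other cells 100%, and the difference in CKO effect 44%. Of the calls, 1.24%, 5.21% and 0% were false. The simulation drew sums and not cells, so it did not cover genes whose UMIs come mostly from a single cell. Its dispersion was set at 0.05 and not estimated from the data. Only genes with at least 20 expected UMIs in a members' sum of average size were changed. En2, with 14 to 19 UMIs per library, and rarer genes lay below that count, so these rates were not measured for them. Shares were compared by exact permutation over libraries (scipy 1.17.1), with exact binomial intervals. Levels are untransformed CPM of summed UMIs. A fold against a sum of 0 uses a floor of 3 counts over all members.

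The genes named were those of the lists and, for each fit, at most 10 higher and 10 lower calls, ranked by log2 difference, with a mean of at least 20 CPM and groups that did not overlap, without sex-linked, mitochondrial, haemoglobin or rule genes; Nkd1, Rpl29 and Crabp1 were named after their values were seen. Of 32285 gene IDs, 32158 were found in GENCODE M21 (GRCm38), the source of gene coordinates. Possible doublets were kept; removing the 0.8% per 1000 cells with the highest simulated-doublet score was an alternative. The other alternatives changed the normalization, the low-count filter, the member rule, the depth and the libraries used.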

Additional observations from a re-analysis of the deposited data

Results flagged for a closer look

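For 3 genes, the CKO effect differed between GABAergic and Pax6 cells in edgeR's test of the difference itself. The log2 difference was 2.61 for En2, 8.66 for Crabp1 and 2.97 for Onecut2. For Crabp1, 170 of the 171 UMIs in members came from 1 cell, and without CKO replicate 1 the value was −4.91 (adjusted p 1.0). For Onecut2, 40 of the 44 UMIs of CKO 1 came from the same cell, and without the members above 10000 UMIs the value was 0.72 (adjusted p 0.965). En2 came from 16 CKO cells, 10 in CKO 1 and 6 in CKO 2. It lost its call in 6 of 17 alternatives, with adjusted p from 0.00118 to 1.0 over all of them. With 2 libraries per group, no library could be tested as an outlier.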

How the results depend on the processing

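The count of genes called between CKO and control GABAergic cells, 0 in the fit reported, was 6 without a low-count filter, 1 with no Pax6 UMI allowed, 1 with an equal number of members per library, and 2 to 6 with a library left out (6 without control 1). With the replicate number as a block it was 0. The deviations of control 1 and CKO 1 from their group means correlated at −0.084 over 1990 genes. At 13 to 34 members per library, this value cannot tell whether the numbers pair the libraries. The 1237 genes apart from the other cells became 490 after thinning to 2000 UMIs, 791 in members without Atoh1, Neurod1 or Barhl1 UMIs, and 647 to 1173 with a library left out (647 without control 1, 667 without CKO 1). The 3 genes of the difference in CKO effect became 0 after thinning, 0 against the excitatory nuclei range, 0 in DESeq2, 1 in members without granule UMIs, and 1 to 4 with a library left out (1 without control 2). The difference in GABAergic share, −0.245 percentage points, ran from −0.493 to 0.0023 with a library left out, the latter without CKO 2. The difference in Skor2 share, 2.94 percentage points, was −1.68 with at least 3 GABA gene UMIs, −0.458 with at least 1, −0.230 with no Pax6 UMI, −1.59 after thinning, and ran from −5.88 to 11.8 with a library left out; the Pax2 difference, −4.49, ran from −6.94 to −2.04 and was −16.1 after thinning, −14.9 with at least 3 GABA gene UMIs and −0.868 with at least 1. The En2 change within members, 0.24, was −0.27 without doublets and −0.092 with equal numbers, 0.67 without members above 10000 UMIs and 1.60 without granule UMIs, and ran from −0.36 to 0.79 with a library left out; for En1 the range was −0.31 to 1.11, and En1 against the other cells was −0.12 after thinning. The Crabp1 difference was −7.09 in members without granule UMIs and −6.45 without members above 10000 UMIs, and ran from −4.91 to 17.4 with a library left out. Where a library was left out of an arm, the lone library was assumed to vary like the others, and shares then had no test. The Skor2 against Pax2 comparison and its alternatives could not be fitted. The alternatives on members with granule UMIs, deep members, shared barcodes, the excitatory nuclei range, and DESeq2 and robust edgeR for the difference were chosen after seeing the data. The cause of these movements was not tested. Depth limits every value here: 88 cells with 330537 UMIs.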
